A study of Mus musculus with 15 samples.

Results

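Small RNAs that mapped to the mouse genome but to none of the small-RNA references were described at the 1296 positions that held 10 or more distinct molecules (UMIs, unique molecular identifiers) in at least 5 of 15 libraries. They were selected on these UMI counts alone, without regard to group, from 1971 deposited positions (members below), each with a chromosome, a start, a strand and a sequence. The remaining 675 positions were listed in 3 or 4 libraries only. The libraries came from microglia, the resident macrophages of the brain, sorted as CD11b+ and CD45+ cells of wild-type (WT) animals or of 5xFAD transgenic (TG) animals, and TG cells were parted by Methoxy-X04, an amyloid dye given to all mice before sorting, into non-phagocytic TG Me-X04- and phagocytic TG Me-X04+ microglia. Each group held 5 libraries, and the 5 TG animals each contributed 1 library of each kind. By the labels WT animals were 2 months old and TG animals 6 months old, so genotype and labelled age cannot be told apart in any comparison with WT. The study's methods give other ages, close to each other, and a larger number of animals for the study as a whole, and the conflict could not be settled from the data used here. In 5xFAD mice the transgenes, which drive amyloid formation, are expressed from the Thy1 promoter, mainly in neurons, so they are driven mainly outside microglia. The label of these positions as lying outside annotated genes held in the strict sense for 525 members (40.5%), which were nuclear, intergenic and apart from tRNA genes. By GENCODE genes alone, with tRNA genes from RefSeq not counted, 552 members (42.6%) were intergenic by position. Another 285 lay in introns in the sense direction, 307 antisense to a gene and 152 in the sense direction of an annotated exon.

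Most cellular RNA that is shorter than a messenger RNA belongs to a few working machines. Small nucleolar RNAs (snoRNAs) guide chemical marks on ribosomal RNA, small nuclear RNAs (snRNAs) form the spliceosome, tRNAs carry amino acids, and RNase MRP and RNase P are ribonucleoproteins that cut precursors of ribosomal and transfer RNA. When such RNAs are processed, trimmed or broken, pieces short enough for a small-RNA library appear, and these have fixed ends where the parent has a processing site and ragged ends where it does not. A short read can also match a genome at many places by chance, so a position given for it need not be where it was made.

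The sequences below are those on which the comparisons turned, written 5′ to 3′ as deposited, with positions on GRCm38. The 3 Rmrp reads, from the RNA component of RNase MRP, are shown because they shared a 5′ end and differed in their 3′ end. They lay on the minus strand at chr4:43493029-43493059, chr4:43493030-43493059 and chr4:43493022-43493059, and capitals mark the last base of the 30-base read and the bases from position 31 on in the other reads.
Rmrp, 31 bases: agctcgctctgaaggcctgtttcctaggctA
Rmrp, 30 bases: agctcgctctgaaggcctgtttcctaggcT
Rmrp, 38 bases: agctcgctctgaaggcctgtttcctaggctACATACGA

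Reads of box C/D snoRNAs, which fall in their own genes, are shown because they made up the most UMIs of any small-RNA class, and the 3 reads from other positions because they held the same short motif. Capitals mark TGATGA, a 6-base form of the C box, where it lies nearest the 5′ end, and the reads printed without capitals lack it. The positions were chr11:106501026-106501065 (plus strand, Snord104), chr15:80082859-80082885 and chr15:80082897-80082919 (minus strand, Snord43), chr8:123103033-123103078 (plus strand, Snord68 within Rpl13), chr2:130172938-130172978 (minus strand, an exon of Snrpb), chr8:89055673-89055701 (plus strand, intergenic) and chr5:144771334-144771362 (plus strand, an intron of Trrap).
Snord104, 40 bases: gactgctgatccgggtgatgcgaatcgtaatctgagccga
Snord43, 27 bases: ctctgtgctgaatgtcaagttctgatt
Snord43, 23 bases: acaaaTGATGAaccttttgacgg
Snord68, 46 bases: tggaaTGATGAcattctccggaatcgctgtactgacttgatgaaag
Snrpb exon, 41 bases: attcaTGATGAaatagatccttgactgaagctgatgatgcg
chromosome 8, 29 bases: tgactgTGATGAatcttactctgagtcac
Trrap intron, 29 bases: cacaaTGATGAacaatactgctggagcca

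Reads of tRNA genes are shown because their 3′ ends told mature tRNA from trailer. Capitals mark CCA, the triplet that is added to a mature tRNA, with the bases after it, or the run of T at which RNA polymerase III stops. The reads of the tRNA alanine gene n-TAtgc10 (gene chr5:125404250-125404321, minus strand) lay within chr5:125404245-125404264. Those of the tRNA valine gene n-TVcac6 (gene chr1:171111443-171111515, plus strand) lay within chr1:171111501-171111520. The read on chromosome 3 lay at chr3:83012834-83012853, antisense to Fgg, and the tRNA threonine trailer reads of n-TTcgt5 within chr16:13437395-13437425.
n-TAtgc10, 19 bases: tccccggcatctccaCCAT
n-TAtgc10, 20 bases, TT tail: tccccggcatctccaCCATT
n-TAtgc10, 20 bases, TA tail: tccccggcatctccaCCATA
chromosome 3, 20 bases, AA tail: tccccggcatctccaCCAAA
n-TVcac6, 17 bases: accgggcggaaacaCCA
n-TVcac6, 20 bases: aaccgggcggaaacaCCAAA
n-TTcgt5 trailer, 30 bases: gccctctttccgtgtggatttaagaaTTTT
n-TTcgt5 trailer, 31 bases: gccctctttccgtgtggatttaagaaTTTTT

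The remaining reads are an snRNA, a miRNA precursor and the mitochondrial genome. The longer Gm24265 read at chr5:115489560-115489602 (plus strand) holds the shorter one, chr5:115489569-115489602, in capitals. In Mir142 (chr11:87756864-87756884, plus strand) capitals mark the seed, bases 2 to 8, of the mature miR-142a-5p, which is given from RefSeq (GRCm38.p6, chr11:87756867-87756887) for comparison. The mitochondrial reads lay at chrM:11576-11614 (plus strand, mt-Th), chrM:2466-2487 (plus strand, mt-Rnr2) and chrM:16169-16188 (minus strand), and in mt-Rnr2 capitals mark the last 4 bases, which hold T19A and C20A, counted from 1 at the 5′ end with the reference base first.
snRNA Gm24265, 34 bases: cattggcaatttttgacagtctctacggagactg
snRNA Gm24265, 43 bases: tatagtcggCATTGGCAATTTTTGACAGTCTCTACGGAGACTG
Mir142, 21 bases: acccATAAAGTagaaagcact
mmu-miR-142a-5p: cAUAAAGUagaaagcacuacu
mt-Th, 39 bases: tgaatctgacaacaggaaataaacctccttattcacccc
mt-Rnr2, 22 bases: tattaatggttcgtttgtAAAA
chromosome M minus strand, 20 bases: gaattgatcaggacataggg

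The table was a small part of each library. It held between 8786 and 37349 UMIs (WT), 15315 and 32000 (TG Me-X04-) or 14875 and 53494 (TG Me-X04+), and 12.04% to 21.03% of the reads that mapped to the genome without a small-RNA class. No deposited value lay between 1 and 9, so a position listed at 0 may hold up to 9 UMIs, and 50.9% of values were 0. Reads that matched no reference took 12.2% of reads in WT and 14.5% in TG Me-X04-, against 20.8% in TG Me-X04+ (means, n = 5). The summed level of 3 myeloid miRNAs in the miRNA table was 18104 to 25628 CPM (UMIs scaled to a common total) for WT, 18103 to 22680 for TG Me-X04- and 13884 to 17415 for TG Me-X04+, and those of neuron, oligodendrocyte, erythroid and endothelial miRNAs were at most 1913, 313, 275 and 291 CPM. The part of either measure in the differences below was not tested.

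Most members were short and lay outside small-RNA genes. Of 1296, 525 were intergenic (35.9% of the members' UMIs), 284 lay antisense to a gene (20.3%), 284 in introns (20.1%) and 59 in exons of other genes (4.28%). The 144 members in small-RNA, rRNA or mitochondrial genes (11.1%) held 19.5% of UMIs. They were 47 in rRNA, 33 in tRNA genes, 28 in snoRNAs and small Cajal body RNAs, 19 in snRNAs, 9 in the RNAs of RNase MRP and P, 4 in miRNA genes and 4 on the mitochondrial genome.

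Read length parted these kinds. The median length was 32 bases in small-RNA, rRNA and mitochondrial genes and 19 bases in the other 1152 members. Of the 1094 members of 16 to 22 bases, 33 lay in such genes, against 86 of the 95 members of 30 bases or more (90.5%). The snoRNA reads had 23 to 46 bases, the snRNA reads 16 to 46 and the reads of RNase MRP and P RNA 30 to 43, while the intergenic reads had 16 to 34.

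**Figure D1:**
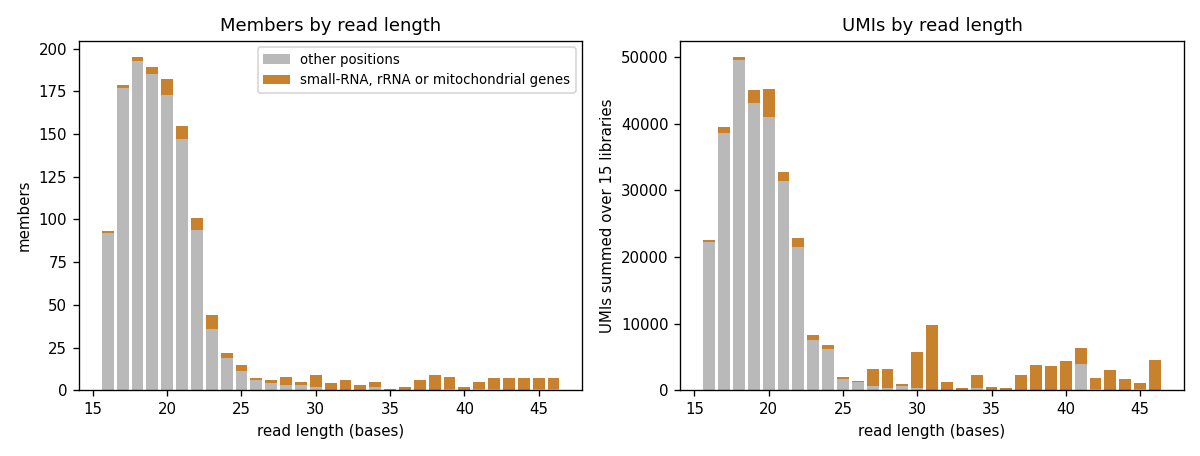
Number of members (left) and their UMIs summed over 15 libraries (right) at each read length in bases, with members in small-RNA, rRNA or mitochondrial genes stacked in orange on the others in grey. Members elsewhere crowd between 16 and 22 bases, and 86 of the 95 members of 30 bases or more are orange.

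By chromosome, members were spread over the nuclear genome. Chromosome 1 held 103, chromosome 17 held 100 and chromosome 19 held 31, and none lay on Y. Of the 100 on chromosome 17, 46 lay in the rRNA unit annotated there as CT010467.1 and 54 elsewhere. Chromosome 4, which carries Rmrp, had the highest share of UMIs (9.36%), and the mitochondrial genome held 4 members with 635 UMIs (0.189%). The plus strand carried 706 members and the minus strand 590.

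Many members were the same RNA seen at several ends. Within 100 bases on 1 strand the 1296 members fell into 953 clusters, of which 760 held a single member and 193 held 536 members. In 59 of the 193 the reads shared a 5′ end and differed at the 3′ end, in 96 they shared the 3′ end and differed at the 5′ end, and in 36 both varied. The largest clusters were the tRNA aspartate gene n-TDgtc16 on chromosome 10 and the rRNA unit on chromosome 17, with 9 members each, and Snord104 with 8. The 9 n-TDgtc16 reads had 21 to 44 bases and began at the first base of the gene, the 9 rRNA reads (chr17:39846642-39846684, plus strand, 38 to 43 bases) shared a start and had 5 ends, and the 8 Snord104 reads had 7 starts and 3 ends. Members of a cluster share their source and are not independent measurements.

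Members also shared sequence across chromosomes. Linked by a shared run of 16 bases they formed 598 families, and 704 members (54.3%) were in a family that spanned several chromosomes. This held for 48 of 144 members in small-RNA, rRNA and mitochondrial genes (33.3%) and for 656 of the other 1152 (56.9%). The largest family had 21 members of 17 to 27 bases on 9 chromosomes, 1 of them in such a gene. At 107 positions several sequences were listed at the same start. Of the 152 members in sense exons, 23 matched the annotated transcript in full, 53 matched it and ran past its end, 76 had 1 or 2 mismatches and 0 had 3 or more.

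The threshold of the rule fell among faint positions. The 198 members listed in exactly 5 libraries held 52 to 172 UMIs in total (median 73.5) and the 278 positions left out with 4 libraries held 41 to 157 (median 55). The 158 members listed in all 15 libraries held 264 to 7841 UMIs. Deeper libraries list more positions, and a library listed a median of 872 members in WT and 731 in TG Me-X04-, against 980 in TG Me-X04+.

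The first comparison was of the makeup of the table in each library. The share of UMIs in small-RNA, rRNA and mitochondrial genes was 24.9%, 30.4%, 26.7%, 26.1% and 34.4% in the WT libraries, 40.5%, 18.3%, 12.7%, 21.7% and 25.7% in TG Me-X04-, against 12.4%, 10.1%, 6.07%, 5.91% and 10.6% in TG Me-X04+. Every TG Me-X04+ library lay below every library of the other groups. Fewer cells of a type and less RNA per cell cannot be told apart in these libraries. The means were 28.5% ± 3.90 (SD, n = 5), 23.8% ± 10.5 and 9.03% ± 2.91, and the share was 14.7 points lower for TG Me-X04+ against TG Me-X04- (exact permutation, two-sided, p = 0.00794, which is the lowest possible, and adjusted p = 0.0221 over 39 tests of 13 measures in 3 comparisons) and in 5 of 5 mice. A sign-flip test over the 5 mice cannot go below its value here, exact p = 0.0625. Between non-phagocytic TG and WT microglia the difference of -4.73 points did not pass (exact permutation, adjusted p = 0.464), but without TG Me-X04- replicate 1 it was -8.90 points and passed (exact permutation, adjusted p = 0.0269), and the share was lower for TG Me-X04+ against WT (exact permutation, adjusted p = 0.0221).

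Reads were shorter in phagocytic microglia. The UMI-weighted length was 23.6 ± 0.471 bases in WT (n = 5), 23.1 ± 1.89 in TG Me-X04-, against 20.6 ± 0.685 in TG Me-X04+, shorter by 2.51 bases against TG Me-X04- (exact permutation, adjusted p = 0.0281) and by 3.01 bases against WT (exact permutation, adjusted p = 0.0221). TG Me-X04- replicate 1 had the highest value of all, 26.03 bases. Reads of 25 bases or more took 23.9% to 31.2% of UMIs in WT, 12.7% to 40.2% in TG Me-X04-, against 5.83% to 13.7% for TG Me-X04+, and both differences from TG Me-X04+ passed the same test (exact permutation, adjusted p = 0.0281 against TG Me-X04- and 0.0221 against WT). Other signs of library quality moved with length and makeup. Reads set aside as too short averaged 33.4% of all reads in WT (25.4% to 40.6%) and 30.7% in TG Me-X04- (21.6% to 38.6%), against 40.99% for TG Me-X04+ (32.7% to 48.7%, n = 5 per group), and the UMIs of all 4 deposited tables were 525316 to 1795899, 588482 to 925641 and 348694 to 552244, in the same order of groups. Their part in these differences was not tested.

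Among nuclear positions the sense exons took a smaller share and introns and intergenic positions a larger one in phagocytic microglia. Sense exons took 23.4% ± 2.63 of nuclear UMIs in WT and 22.7% ± 8.64 in TG Me-X04-, against 11.1% ± 2.57 in TG Me-X04+ (n = 5 per group; exact permutation, adjusted p = 0.0281 against TG Me-X04- and 0.0221 against WT). Intergenic positions took 36.1% ± 1.88, 36.1% ± 4.36 and 42.7% ± 1.95, and introns 17.1% ± 0.993, 19.4% ± 3.16 and 23.7% ± 0.744, each higher for TG Me-X04+ against both other groups (exact permutation, adjusted p = 0.0281 against TG Me-X04- and 0.0221 against WT). Antisense positions took 23.4% ± 0.636, 21.8% ± 1.28 and 22.6% ± 0.876. Between TG Me-X04- and WT the antisense share passed, by -1.63 points (exact permutation, adjusted p = 0.0221), and without TG Me-X04- replicate 1 the intron share did too, by 3.57 points (exact permutation, adjusted p = 0.0206). Shares of a whole move together, so these 4 are not separate results. The exon share is largely that of small-RNA and rRNA genes, since 14386 of the 61837 UMIs of sense-exon members lay in exons of other genes. In the fit of single positions described below, the 40 tested positions in other exons were 23 higher and 17 lower against TG Me-X04- (2 called lower). Against WT they were 33 higher and 7 lower (3 called lower).

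**Figure D2:**
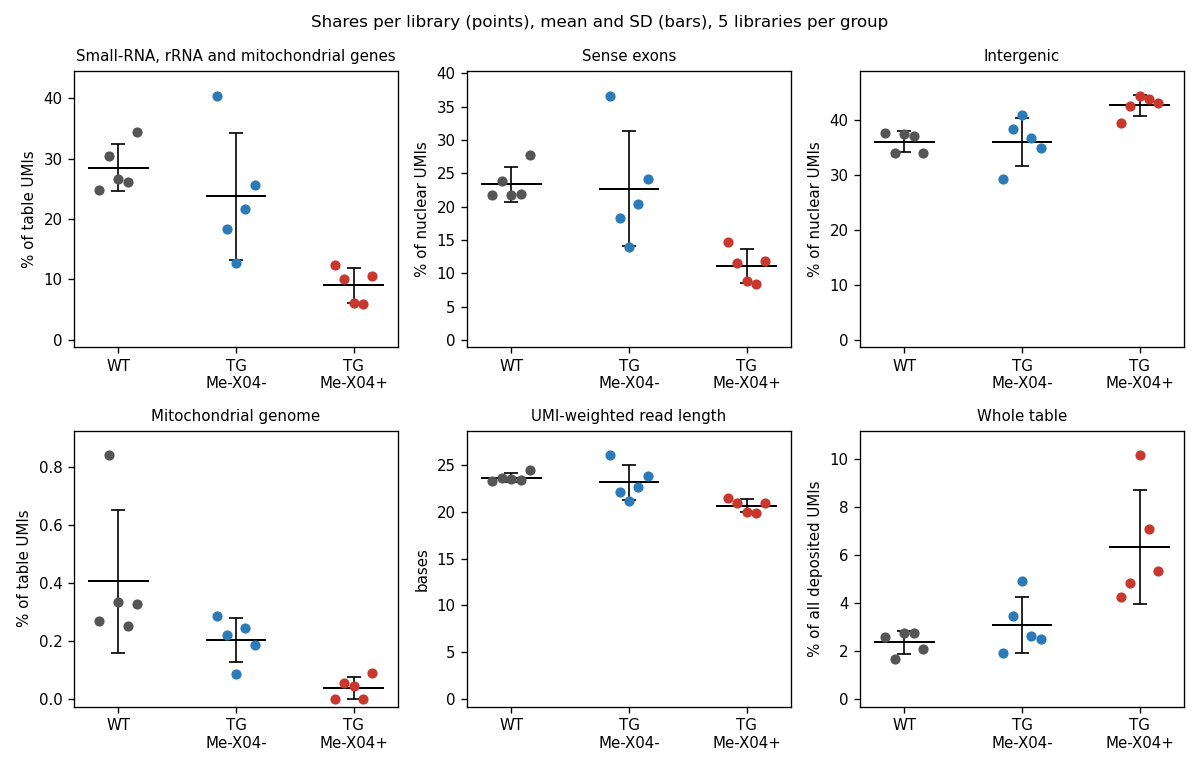
Each panel gives 1 measure per library (points) with the mean and SD of 5 libraries per group (bars): shares in percent of table UMIs, of nuclear UMIs or of all deposited UMIs, and the UMI-weighted read length in bases. In the first panel the TG Me-X04+ libraries lie between 5.91% and 12.4%, below all other libraries, and in the last panel their table share lies between 4.27% and 10.2%.

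The table itself was a larger part of the deposited UMIs in phagocytic microglia. It took 2.37% ± 0.477 in WT and 3.09% ± 1.16 in TG Me-X04-, against 6.34% ± 2.39 in TG Me-X04+ (n = 5 per group; exact permutation, adjusted p = 0.0387 against TG Me-X04- and 0.0221 against WT), and was higher in 5 of 5 mice. Set against all deposited UMIs, the kinds of position separated. Small-RNA, rRNA and mitochondrial genes gave 6641 ± 936 CPM of all deposited UMIs in WT and 6499 ± 772 in TG Me-X04-, against 5250 ± 757 in TG Me-X04+, lower for TG Me-X04+ against TG Me-X04- (exact permutation, adjusted p = 0.0387, 5 of 5 mice) and short of the threshold against WT (exact permutation, adjusted p = 0.0595, and 0.0269 without WT replicate 2). All other positions gave 17049 ± 4102, 24376 ± 11990 and 58182 ± 23586, higher for TG Me-X04+ (exact permutation, adjusted p = 0.0281 against TG Me-X04- and 0.0221 against WT, 5 of 5 mice). With single libraries left out these 3 calls against TG Me-X04- did not all hold. The table share lost its call without replicate 3 of TG Me-X04+ or 1, 2, 4 or 5 of TG Me-X04- (exact permutation, adjusted p 0.0595 to 0.0802), small-RNA genes lost theirs in 8 of 10 such tests (0.0595 to 0.0802, the call held when replicate 3 of TG Me-X04+, or replicate 4 of its paired group, was left out) and other positions without replicate 1, 2, 4 or 5 of TG Me-X04- (0.0595 to 0.0714).

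**Figure D3:**
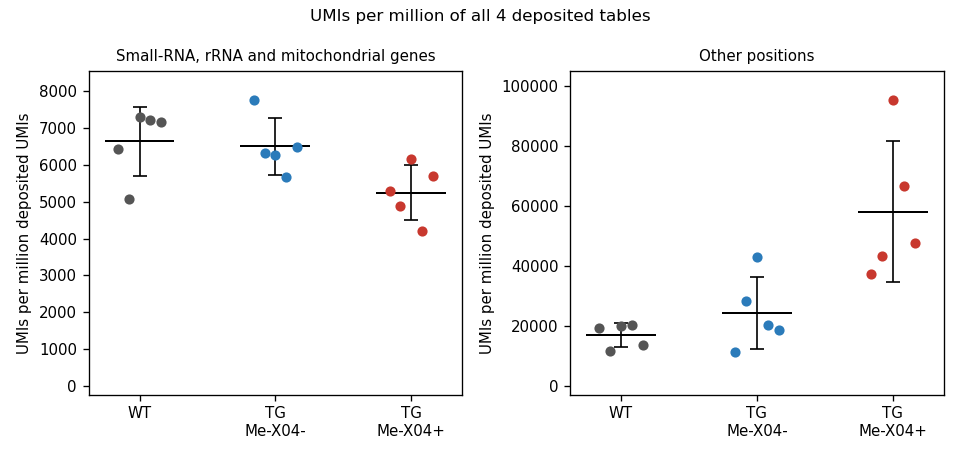
CPM of all 4 deposited tables for members and other listed positions in small-RNA, rRNA and mitochondrial genes (left) and elsewhere (right), 1 point per library with mean and SD of 5 libraries per group. On the left TG Me-X04+ averages 5250 against 6499 in TG Me-X04-, and on the right 58182 against 24376.

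Single positions were then tested with edgeR's quasi-likelihood test, in 1 fit of all 15 libraries. The filter on low counts kept 998 positions, all of them members, and 298 members were not tested. Fold changes below are on TMM factors of this table, and a call needed an adjusted p under 0.05 (Benjamini-Hochberg) and a log2 fold change of 0.7 or more in either direction. Between TG Me-X04+ and TG Me-X04-, 2 positions rose and 56 fell, which was 5.81% of those tested, 0.2% for rises and 5.61% for falls. With the mouse as a block, here and for single positions below, WT was left out of the fit and 756 positions were tested. Of these 22 were called, 1 higher and 21 lower, and without WT and without the block 25 of 756 were. In the fit of all 15 libraries, 42 of the 120 tested positions in small-RNA, rRNA and mitochondrial genes fell and 0 rose, and of the other 878, 14 fell and 2 rose. With each of the 10 TG libraries left out in turn the falls in such genes were 27 to 42. Of the 113 tested reads of 25 bases or more 35 fell, and of the 885 shorter ones 21. Length and kind of gene overlap so far that their parts were not separated.

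By class, falls against TG Me-X04- were 14 of 27 tested for snoRNAs and small Cajal body RNAs, 4 of 9 for RNase MRP and P RNA, 9 of 29 for tRNA genes, 9 of 33 for rRNA, 4 of 18 for snRNAs, 1 of 2 for miRNA genes and 1 of 2 for the mitochondrial genome. Outside these they were 7 of 205 antisense, 3 of 227 intronic, 2 of 40 exonic and 2 of 406 intergenic positions. Against WT, 5 positions rose and 66 fell (7.11% of those tested, 0.501% for rises and 6.61% for falls), with 50 of the falls in the 120 positions of small-RNA, rRNA and mitochondrial genes. These were 14 in snoRNAs, 12 in tRNA genes, 10 in rRNA, 9 in snRNAs, 3 in RNase MRP RNA, 1 in Mir142 and 1 in mt-Th. The comparisons with TG Me-X04- and with WT share the TG Me-X04+ libraries. Of the 67 positions that fell in either, 26 were at 0 across the TG Me-X04+ group, for which no fold is given. These 26 met the rule without any TG Me-X04+ library, so their calls are no test of a fall. Where some libraries of a group were listed at 0, the fit took these as 0 though they may hold up to 9 UMIs, so the size of the fold is uncertain.

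Positions listed in every library hold no value hidden by the limit at 10 UMIs. The limit still selected them, since any position under 10 UMIs in 1 library is left out. Fitted alone, the 158 of them gave 12 higher and 28 lower in TG Me-X04+ against TG Me-X04- (7.59% and 17.7%, 25.3% in all). All 27 in small-RNA and rRNA genes had a negative fold change and 24 fell, with a median log2 fold change of -1.37 against 0.02 over the 158. The 7 reads of RNase MRP and P RNA and the 9 of snoRNAs all fell. Against WT 9 rose (5.7%) and 27 fell (17.1%), 22.8% in all, with 22 of the 27 in such genes lower (median -1.40, against 0.07 over the 158).

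The direction depended on what the counts were set against. With the UMIs of all 4 deposited tables as library size, the median log2 fold change of all 998 positions moved from 0.20 to 1.07 between TG Me-X04+ and TG Me-X04-, and 51 were now called higher (5.11%) and 19 lower (1.9%), 7.01% in all. Of the lower ones 12 were in small-RNA, rRNA and mitochondrial genes, where none rose, and all 51 that rose were elsewhere. Against WT the median moved from 0.39 to 1.74 and 139 were called higher (13.9%) and 33 lower (3.31%), 17.2% in all, with 22 of the lower ones and none of the higher ones in such genes. On this scale the median of the 27 tested snoRNA positions stayed below 0 (-1.04 against TG Me-X04-), as did that of 18 snRNA (-1.34) and 29 tRNA gene positions (-0.69), that of RNase MRP and P RNA was near 0 (-0.18, and 0.18 against WT) and that of rRNA was 0.06. These medians include positions listed at 0 in TG Me-X04+, whose fitted fold is no measure of size. In the plot of fold change by read length, 42 positions at 0 in all TG Me-X04+ and 15 at 0 in all TG Me-X04- libraries are not drawn.

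**Figure D4:**
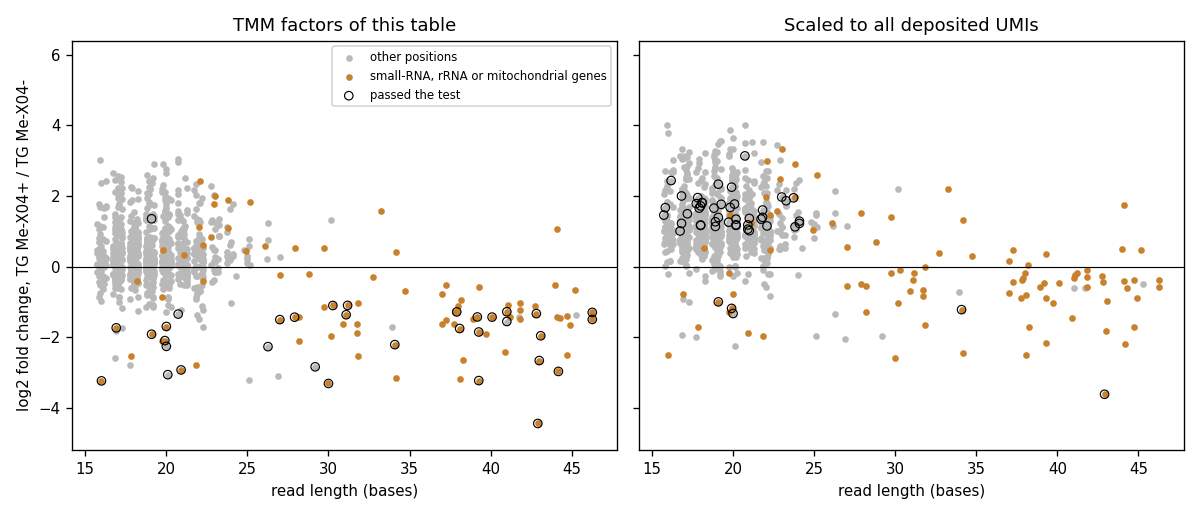
Log2 fold change of TG Me-X04+ over TG Me-X04- against read length in bases for the 941 tested positions listed in both groups, with TMM factors of this table (left) or all deposited UMIs as library size (right), orange for small-RNA, rRNA or mitochondrial genes, grey for other positions and circled where called. On the left most long orange reads lie below 0, and on the right the points are shifted upward and the circles above 0 all belong to grey positions, 1 of them hidden by an uncalled orange point.

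RNase MRP RNA gave the most abundant member. Its 31-base read starts at base 5 of the 281-base Rmrp gene, 1 base before the annotated ribozyme, and held 7841 UMIs. The level was 26160, 23076, 31832, 28690 and 69268 CPM (of the UMIs of this table, scaled by TMM factors) in WT and 54445, 28202, 21433, 28780 and 28552 in TG Me-X04-, against 14064, 13246, 11247, 8716 and 15469 in TG Me-X04+. The TG Me-X04+ libraries did not overlap with the others, and WT replicate 5 and TG Me-X04- replicate 1 stood above the rest of their groups. The log2 fold change was -1.36 ± 0.33 (SE) against TG Me-X04- (edgeR, adjusted p = 0.00972) and -1.51 ± 0.33 against WT (adjusted p = 0.0031), and -0.38 and -0.13 with all deposited UMIs as library size, no longer called. Fitted without the WT libraries the first call was lost (edgeR, adjusted p = 0.0694), as was that of Snord104 below (0.0531).

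The 30-base form, which lacks the last base, behaved like the 31-base form with a smaller contrast. It averaged 13658 ± 7735 CPM in WT and 15924 ± 5609 in TG Me-X04-, against 7422 ± 1194 in TG Me-X04+ (n = 5), a log2 fold change of -1.10 ± 0.31 against TG Me-X04- (edgeR, adjusted p = 0.0343) that was lost (adjusted p 0.0661 to 0.100) when replicate 1 of TG Me-X04- or replicate 3 or 4 of TG Me-X04+ was left out, and -0.88 against WT (edgeR, adjusted p = 0.0900). With all deposited UMIs as library size the former was -0.10. The 38-base form fell by 1.28 and 1.42 on the log2 scale (edgeR, adjusted p = 0.0164 and 0.00583). Its call against TG Me-X04- was lost without replicate 3 of TG Me-X04+ or replicate 1 of TG Me-X04- (edgeR, adjusted p = 0.0630 and 0.0672), and both were lost on all deposited UMIs (-0.33 and -0.09). The 7 Rmrp members together held 5966 UMIs in WT and 5849 in TG Me-X04-, against 2990 in TG Me-X04+, sums that are not scaled for depth. Of the RNase P RNA, Rpph1, which matures the 5′ ends of tRNAs, both members had negative fold changes that did not pass (-1.12 and -1.23 against TG Me-X04-, edgeR, adjusted p = 0.999 and 0.154).

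Box C/D snoRNAs, which guide ribose methylation, were led by Snord104. Its 40-base read covers bases 34 to 73 of a gene of 70 bases, thus 3 bases past the annotated end. It stood at 18853, 15441, 19211, 15645 and 25437 CPM in WT and 28469, 16390, 9701, 16073 and 21686 in TG Me-X04-, against 10184, 5857, 3438, 5810 and 9023 in TG Me-X04+. The lowest TG Me-X04- library, replicate 3, overlapped with TG Me-X04+ replicate 1, and no WT library did. The log2 fold change was -1.43 ± 0.32 against TG Me-X04- (edgeR, adjusted p = 0.0059) and -1.47 ± 0.32 against WT (adjusted p = 0.00294), and -0.46 and -0.22 with all deposited UMIs, not called. The other Snord104 reads of that cluster that were called against TG Me-X04- were those of 36, 37, 39 and 41 bases. Without replicate 3 of TG Me-X04+ or replicate 1 of TG Me-X04- the last 3 lost their call (edgeR, adjusted p 0.0587 to 0.109), as did those of 39 and 41 bases without TG Me-X04+ replicate 4 (0.0696 and 0.0698), and on all deposited UMIs these latter were at -0.47 and -0.32, not called.

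Further snoRNA reads moved by like amounts. The 46-base Snord68 read fell by 1.49 on the log2 scale against TG Me-X04- and by 1.38 against WT (edgeR, adjusted p = 0.0059 and 0.00649), and the 27-base Snord43 read, in a gene that the annotation lists as a miRNA, was 2.83-fold and 3.09-fold lower (adjusted p = 0.00752 and 0.00294). On all deposited UMIs these were at -0.57 and -0.18, and at -0.56 and -0.28. A 41-base read in an exon of Snrpb, which codes for a spliceosomal core protein, moved like them, by -1.55 and -1.69 (edgeR, adjusted p = 0.00765 and 0.00294), and by -0.61 and -0.39 on all deposited UMIs.

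The Snrpb read shares TGATGA with snoRNA reads. The motif, searched on the read strand only, was in 10 of 28 snoRNA members (35.7%) and in 17 of all 1296 (1.31%), namely in 13 of the 136 members of 25 bases or more and in 4 of the 1160 shorter ones. Of the 7 members with the motif outside snoRNA genes 4 fell against TG Me-X04-. These 4 are among the 14 that fell of 878 tested positions outside small-RNA, rRNA and mitochondrial genes. Longer reads fell more often, as given above, and the motif was not separated from read length. The 4 include the 29-base read on chromosome 8, which was listed with 29, 30, 35, 37 and 71 UMIs in WT and 40, 39, 37, 27 and 27 in TG Me-X04-, against 10, 13, 0, 0 and 0 in TG Me-X04+ (edgeR, log2 fold change -2.84 ± 0.78, adjusted p = 0.0255 against TG Me-X04-). The size of this fold is uncertain, since values listed at 0 may hold up to 9 UMIs. This read was not called with the mouse as a block (edgeR, adjusted p = 0.195), on all deposited UMIs (-1.97, adjusted p = 0.231), nor when replicate 3 or 4 of TG Me-X04+, or 1 or 2 of TG Me-X04-, was left out (0.0531 to 0.0577). The Trrap read, also 1 of the 4, was listed at 0, 0, 16, 15 and 37 UMIs in WT, 26, 29, 15, 14 and 28 in TG Me-X04- and 0 throughout TG Me-X04+ (edgeR, adjusted p = 0.0090 against TG Me-X04-, 0.203 with the mouse as a block). It met the rule without any TG Me-X04+ library, so its call is no test of a fall. A match to 6 bases is a description and names no gene.

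Among snRNAs the clearest change was in Gm24265, of 141 bases, whose 34-base read ends 3 bases past the annotated gene. It was chosen after its values were seen. It stood at 6197, 6691, 7096, 5728 and 8614 CPM in WT and 8036, 4408, 3023, 6615 and 6008 in TG Me-X04-, against 1819, 985, 728, 1316 and 1245 in TG Me-X04+. All TG Me-X04+ libraries lay below all others. The log2 fold change was -2.21 ± 0.31 against TG Me-X04- (edgeR, adjusted p = 6.06e-05) and -2.50 ± 0.31 against WT (adjusted p = 4.69e-06), and it kept its call on all deposited UMIs (-1.22 in both, adjusted p = 0.0154 and 0.00488). The 19 snRNA members together held 4151 UMIs in WT and 1987 in TG Me-X04-, against 520 in TG Me-X04+. These sums are not scaled for depth, and WT replicates 4 and 5 gave 1304 and 1799 of the WT UMIs. As CPM of this table the means were 31911 ± 15569, 19458 ± 8714 and 4250 ± 2280 (SD, n = 5), in the same order of groups.

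Ribosomal RNA moved less evenly. Of the 9 reads with 1 start in the rRNA unit, a 43-base read listed in every library had 10, 12, 16, 14 and 20 UMIs in TG Me-X04+ against 29 to 60 in TG Me-X04-, a log2 fold change of -1.96 ± 0.36 (edgeR, adjusted p = 0.00108; -0.97 on all deposited UMIs, adjusted p = 0.168). The 39-base read from the same start, the most abundant of the cluster, was at -0.58 (edgeR, adjusted p = 0.609). Copies of the rRNA unit share sequence, so the copy is uncertain.

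The tRNA-derived members fell into 3 kinds by their place in the gene. Reads of the 3′ end (13 members of 5 genes, 17 to 22 bases) held 4418 UMIs in WT and 2321 in TG Me-X04-, against 653 in TG Me-X04+. Trailers, which begin at the first base after the gene (10 members of 4 genes, 20 to 38 bases), held 1265, 672 and 217. Reads of the 5′ end (10 members of 2 genes, 21 to 44 bases) held 842, 609 and 948, so that their order differed from that of the other kinds. None of the 8 tested positions of the 5′ end, all of n-TDgtc16, passed the test in any comparison, and they were at -0.24 to 1.57 against TG Me-X04-.

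The 3′ end of the tRNA alanine gene n-TAtgc10 was the most abundant. Its 20-base read that ends in TT stood at 7894, 12954, 11608, 8232 and 18439 CPM in WT and 10465, 6890, 3610, 6615 and 6752 in TG Me-X04-, against 3031, 2135, 524, 1861 and 3112 in TG Me-X04+. No TG Me-X04+ library reached the lowest of the others. The log2 fold change was -1.70 ± 0.37 against TG Me-X04- (edgeR, adjusted p = 0.0059) and -2.48 ± 0.38 against WT (adjusted p = 5.75e-05), and -0.76 (adjusted p = 0.112) and -1.21 (adjusted p = 0.00592) on all deposited UMIs. CCA followed by up to 4 bases of A or T ended 12 of the 33 tRNA members (36.4%) and 77 of all members (5.94%). The bases after CCA differed among otherwise equal reads, and the read with an AA tail was placed on chromosome 3 in the deposited table.

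The AA-tailed read equals the n-TAtgc10 reads up to and including CCA, and stood at 18231 ± 4809 CPM in WT (n = 5), 11510 ± 3689 in TG Me-X04-, against 2416 ± 979 in TG Me-X04+, a log2 fold change of -2.26 ± 0.33 against TG Me-X04- (edgeR, adjusted p = 8.47e-05) and -2.92 ± 0.34 against WT (adjusted p = 3.16e-06), called also on all deposited UMIs (-1.33 and -1.67). The family linked to n-TAtgc10 by 16 shared bases had 19 members on 4 chromosomes, 6 of them inside the gene and 13 elsewhere. Of its 17 tested members 14 fell in each comparison with TG Me-X04+. Over all tested positions 5.61% fell against TG Me-X04- and 6.61% against WT. The family's members share sequence and are not independent, and some of those that fell were at 0 throughout TG Me-X04+. More widely, of the 67 positions that fell in either comparison 51 lay in small-RNA, rRNA or mitochondrial genes, 9 lay outside but shared 16 bases with a member inside, and 7 did neither.

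The tRNA valine gene n-TVcac6 and the n-TTcgt5 trailer gave smaller numbers. The 17-base n-TVcac6 read ends at CCA and was at -1.73 ± 0.45 against TG Me-X04- (edgeR, adjusted p = 0.0168, 0.0726 with the mouse as a block, and 0.0661 or 0.0672 when replicate 3 of TG Me-X04+ or replicate 1 of TG Me-X04- was left out, and -0.78 with adjusted p = 0.324 on all deposited UMIs) and -2.84 ± 0.46 against WT (adjusted p = 0.000111). The 20-base read begins 1 base earlier and carries AA after CCA. It was listed with 26, 39, 46, 61 and 185 UMIs in WT, 42, 45, 0, 19 and 22 in TG Me-X04- and 0 throughout TG Me-X04+ (edgeR, adjusted p = 0.000143 against TG Me-X04-). This 20-base read met the rule without any TG Me-X04+ library, so its call is no test of a fall. The 31-base n-TTcgt5 trailer was listed with 31, 25, 56, 67 and 185 UMIs in WT and 42, 51, 25, 33 and 50 in TG Me-X04-, against 0, 28, 16, 11 and 21 in TG Me-X04+, with a log2 fold change of -2.43 ± 0.56 against WT (edgeR, adjusted p = 0.00466, and -1.03 with adjusted p = 0.201 on all deposited UMIs) and -1.63 ± 0.55 against TG Me-X04- (adjusted p = 0.0827). TTTT ended 6 of the 33 tRNA members and 7 of all members (0.540%).

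**Figure D5:**
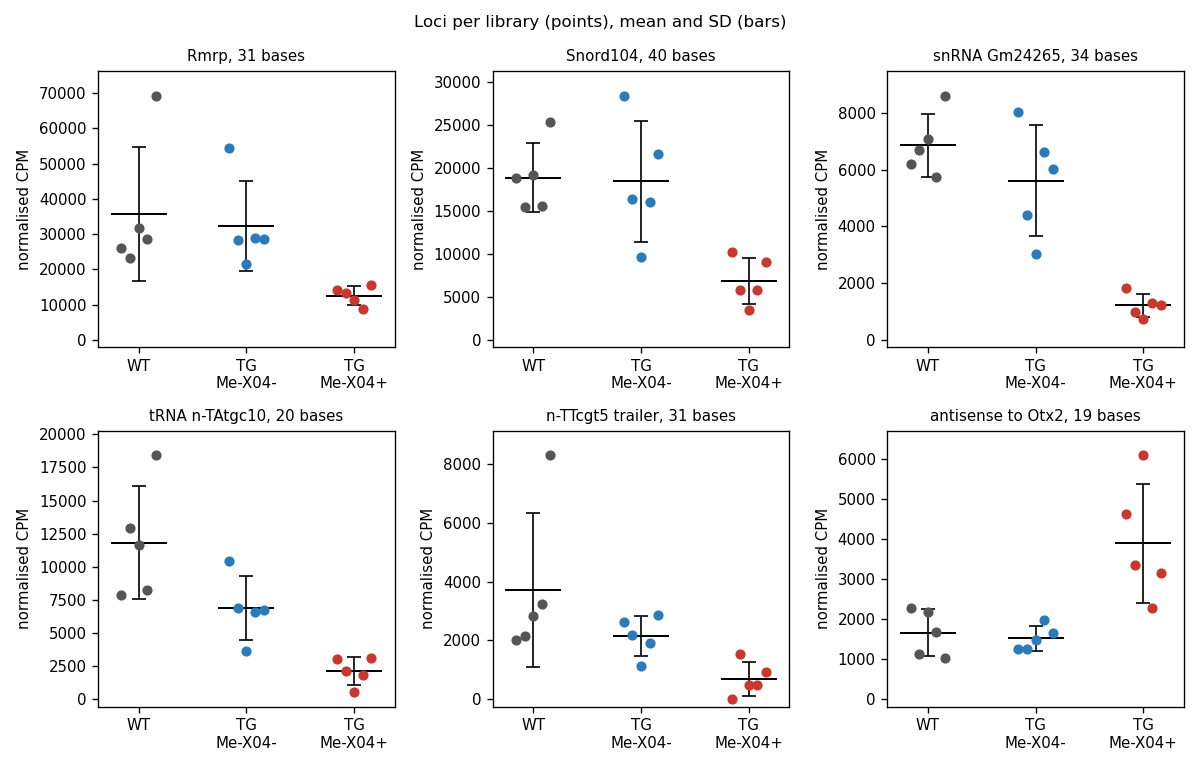
Normalised CPM of 6 members, 1 point per library, with the mean and SD of 5 libraries per group. In the Rmrp, Gm24265 and n-TAtgc10 panels all TG Me-X04+ points lie below all others, in the Snord104 and n-TTcgt5 panels single points overlap, and in the Otx2 panel the TG Me-X04+ points are the highest except for 1 (2270), which lies just under the highest WT value (2283).

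The miRNA precursor Mir142 carries a myeloid miRNA. Its 21-base member starts at the first base of the annotated hairpin and 3 bases before the mature miR-142a-5p, so its seed differs from that of the mature miRNA. It was listed with 28, 33, 43, 45 and 86 UMIs in WT and 34, 45, 21, 21 and 34 in TG Me-X04-, against 10, 0, 0, 11 and 0 in TG Me-X04+. The TG Me-X04+ values were below all others. Those listed at 0 were fitted as 0 but may hold up to 9 UMIs, so the sizes of the folds are uncertain. The log2 fold change was -2.93 ± 0.75 against TG Me-X04- (edgeR, adjusted p = 0.0162, 0.209 with the mouse as a block) and -3.58 ± 0.76 against WT (adjusted p = 0.00281), and neither was called on all deposited UMIs (-1.89 and -2.20).

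The mitochondrial genome encodes subunits of the respiratory chain with its own rRNAs and tRNAs. Its share of the table's UMIs was 0.271%, 0.842%, 0.336%, 0.253% and 0.329% in WT and 0.287%, 0.222%, 0.0863%, 0.245% and 0.188% in TG Me-X04-, against 0%, 0.0551%, 0.0467%, 0% and 0.0913% in TG Me-X04+. TG Me-X04+ did not overlap with WT, and WT replicate 2, which had the fewest UMIs in this table, was far above its group. The means were 0.406% ± 0.246, 0.206% ± 0.0759 and 0.0386% ± 0.0390, and all 3 differences passed (exact permutation, adjusted p = 0.0281 for TG Me-X04+ against TG Me-X04-, 0.0495 for TG Me-X04- against WT and 0.0221 for TG Me-X04+ against WT). TG Me-X04+ had the lower share in 5 of 5 mice, and with the mouse as a block the adjusted p was 0.0903 (exact sign-flip). The call between TG Me-X04+ and TG Me-X04- was lost without the most abundant mitochondrial position (-0.0857 points, exact permutation, adjusted p = 0.103). The call between TG Me-X04- and WT was lost without that position too (exact permutation, adjusted p = 0.267), and without WT replicate 2 (0.0917) or any 1 TG Me-X04- library (0.0595 to 0.177). The 4 members behind most of it held 0 to 111 UMIs per library, and a value under 10 is not listed.

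By strand, plus-strand reads took 0.276% ± 0.147, 0.101% ± 0.0280 and 0.0181% ± 0.0249 of UMIs in WT, TG Me-X04- and TG Me-X04+, with no overlap between any 2 groups (n = 5; exact permutation, adjusted p = 0.0221 in each comparison). Minus-strand reads took 0.130% ± 0.105, 0.104% ± 0.0618 and 0.0205% ± 0.0282 and passed between TG Me-X04+ and WT (exact permutation, adjusted p = 0.0281, and 0.0802 to 0.103 without replicate 1, 3, 4 or 5 of TG Me-X04+), and between the TG groups only without TG Me-X04- replicate 3 (exact permutation, adjusted p = 0.0206). The plus-strand member in mt-Th, the tRNA for histidine, runs 2 bases past the end of the gene into mt-Ts2. It was listed with 16, 17, 39, 44 and 42 UMIs in WT and 11, 23, 25, 20 and 17 in TG Me-X04-, against 0, 0, 15, 0 and 0 in TG Me-X04+ (edgeR, log2 fold change -3.23 ± 0.96, adjusted p = 0.0420 against TG Me-X04-, and -4.01 ± 0.98, adjusted p = 0.0083 against WT). Values listed at 0 were fitted as 0 but may hold up to 9 UMIs, so the sizes of both folds are uncertain. Against WT the mt-Th member was not called on all deposited UMIs (-2.53, edgeR, adjusted p = 0.181). The first of these calls was lost with the mouse as a block (edgeR, adjusted p = 0.212), on all deposited UMIs (0.366) and when replicate 1, 2, 4 or 5 of TG Me-X04+, or 2, 3 or 4 of TG Me-X04-, was left out (0.0526 to 0.0879).

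The other mitochondrial members were fainter. The 22-base mt-Rnr2 read was listed in all 5 WT libraries, at 10 to 20 UMIs, and at 0 in all 10 TG libraries. It met the rule only through the WT libraries, so this pattern is no test of a difference, and values under 10 are not listed. The 21-base form was listed in 3 libraries of WT, 1 of TG Me-X04- and 2 of TG Me-X04+ at 10 to 13 UMIs. Both forms were too rare to be tested. With the sequences that share 16 bases with them they formed a family of 11 members on 7 chromosomes, of which 8 were tested and 0 fell. The minus-strand read was listed in 5 libraries of WT, 4 of TG Me-X04- and 2 of TG Me-X04+ and did not pass (edgeR, adjusted p = 0.567 and 0.45). No mRNA of the 13 that the mitochondrial genome encodes held a member.

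Rises were few on TMM factors and all in short reads outside small-RNA genes. The 5 positions that rose in either comparison had 18 to 24 bases. A 21-base intergenic read, listed at 0 in all WT and TG Me-X04- libraries, was called in both comparisons. It met the rule only through the 5 TG Me-X04+ libraries, so its calls are no test of a rise. A 19-base intronic read, at 0 in WT, was called against WT (edgeR, adjusted p = 0.0338) and met the rule without any WT library. No fold is given for either, since a position listed at 0 may hold up to 9 UMIs. Both were chosen after their values were seen. Of the 3 listed in every group, a 19-base read antisense to Otx2, a homeobox gene (chr14:48663722-48663740, plus strand), stood at 2283, 1115, 2180, 1685 and 1032 CPM in WT and 1246, 1241, 1489, 1973 and 1659 in TG Me-X04-, against 4607, 3339, 6090, 2270 and 3156 in TG Me-X04+. TG Me-X04+ did not overlap with TG Me-X04- and overlapped with WT in 1 library. The log2 fold change was 1.36 ± 0.34 against TG Me-X04- (edgeR, adjusted p = 0.0139, 0.0621 with the mouse as a block) and 1.23 ± 0.34 against WT (adjusted p = 0.0216), and neither held when TG Me-X04+ lost replicate 1 (edgeR, adjusted p = 0.115 and 0.108) or 3 (0.0783 and 0.121). Leaving out TG Me-X04- replicate 1, 2 or 5 also ended the first (0.0635 to 0.0831), and WT replicate 2 or 5 the second (0.0579 and 0.101). It belongs to a family of 9 members on 6 chromosomes, so the position beside Otx2 is uncertain.

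Against WT an 18-base read in an intron of Odf4 (chr11:68922673-68922690, minus strand) rose by 1.48 ± 0.36 on the log2 scale (edgeR, adjusted p = 0.0083), a call that needed replicate 1 of TG Me-X04+ (adjusted p = 0.0778 without it), and a 24-base intergenic read (chr2:173528594-173528617, plus strand) by 1.05 ± 0.31 (adjusted p = 0.0369), lost in 8 of the 10 fits that left out a TG Me-X04+ or WT library. Abundant reads of the same kind did not all move on TMM factors. The intergenic reads at chr13:54248447-54248464 (plus strand) and chrX:130730370-130730388 (minus strand), both among the 10 with the highest mean CPM, were at 0.23 ± 0.27 and 0.24 ± 0.25 against TG Me-X04- and were not called in that fit. On all deposited UMIs both were called higher against TG Me-X04-, at 1.17 and 1.14 (edgeR, adjusted p = 0.0154 and 0.0234). Against WT they were at 1.39 and 1.56 on that scale (edgeR, adjusted p = 0.00147 and 0.00107).

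Markers of microglia and of other cells were nearly absent among the members. Among genes of microglial identity Olfml3 held a member, which was not tested, of 20 genes raised around amyloid none did, and of 17 genes of other brain cells Flt1 did, with a member that was tested and not called. None of 9 nuclear long noncoding RNAs held a member, and of 11 RNA polymerase III and other housekeeping RNAs Rmrp and Rpph1 did.

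The last comparison set TG Me-X04- against WT. No position passed edgeR's quasi-likelihood test (0.0% of 998), 39 had an unadjusted p under 0.05, and DESeq2 called 0. The median log2 fold change of the 998 was 0.06, and 0.46 with all deposited UMIs as library size, where 0 were called too. On TMM factors all 29 tested tRNA gene positions had a negative fold change, as did all 18 of snRNAs, and 538 of the 998 were positive. With all deposited UMIs as library size 25 of the 29 and 17 of the 18 were negative. Many of these positions are reads of the same gene, so they are not independent. Without WT replicate 3, 1 position was called. The 34-base Gm24265 read was at -0.29, the 31-base Rmrp read at -0.15, the 40-base Snord104 read at -0.04 and the TT-tailed n-TAtgc10 read at -0.79, none called.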

How the data were processed

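Small RNA of 15 libraries of sorted microglia (3 groups of 5) was sequenced with UMIs. The authors deposited UMI counts and read counts per mapped sequence, not normalized, with position, strand and sequence. Per the submitters' processing notes the build was GRCm38 and edgeR 3.24.3 was used. The listed position counts from 0, since 1 had to be added in 16 of 16 exact matches to transcripts. Here UMI counts were used, and depth per library is given with the results. Members and lists were chosen with earlier results of these data known. Annotation was GENCODE vM21 on GRCm38, with tRNA genes and the mature miRNA from RefSeq GRCm38.p6. Shared sequence was a common run of 16 bases, and neighbours lay within 100 bases.

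Positions were fitted with edgeR 4.0.16 (R 4.3.3; filterByExpr, TMM, 1 quasi-likelihood fit of all 15 libraries) and Benjamini-Hochberg adjustment, and DESeq2 1.42.0 was an alternative. The threshold was that of the study's methods. The fit was tested on simulated data, where it called a minority of the changes put in, so few or no calls do not show that positions did not differ. Shares were compared by exact permutation of 252 arrangements. The small-RNA gene share, the share of reads of 25 bases or more and both CPM of all deposited UMIs were added after the data were seen. Positions named were, per comparison, the 10 largest called rises and falls with at least median level, the 10 most abundant, the most abundant mitochondrial read of each strand, the 3 largest clusters, list genes and members in tRNA or miRNA genes. Chosen after their values were seen were the 34-base Gm24265 read, the AA-tailed read on chromosome 3, the 17-base n-TVcac6, 30-base n-TTcgt5 and TA-tailed n-TAtgc10 reads, Mir142, Trrap, the mt-Rnr2 and minus-strand mitochondrial reads and the 29-base read on chromosome 8. No 2 libraries of a group were alike within counting error (chi-square over its degrees of freedom was 2.82 to 13.9). The labels pair both libraries of a TG mouse, and correlations of their deviations were -0.071 to 0.230, against -0.223 to 0.226 between mice. P-values against WT measure the spread between these libraries. One gene of the microglial list is not reported here.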

Additional observations from a re-analysis of the deposited data

Results flagged for a closer look

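Of 120 groups of 5 libraries, 8 had 1 library whose gap to the next exceeded 0.71 of the group's range, and chance gives about 1 in 20. WT replicate 2, which had the fewest UMIs in this table (8786) but not the fewest of all deposited UMIs, was apart in 5 of them. Its mitochondrial share was 0.842% against 0.253% to 0.336% in the other WT libraries, and its plus-strand mitochondrial share 0.535% against 0.187% to 0.258%. In CPM of this table its mitochondrial reads stood at 7284 against 2528 to 3359, its Mir142 reads at 7626 against 2572 to 3615 and the mt-Rnr2 family at 19463 against 4337 to 8110. WT replicate 5 had 31.2% of UMIs in reads of 25 bases or more, against 23.9% to 25.6%, and 13387 CPM of n-TTcgt5 reads, against 6634 to 8233. TG Me-X04- replicate 1 had an antisense share of 19.6%, against 22.1% to 22.8%.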

How the results depend on the processing

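Scaling to all deposited UMIs changed the split of higher and lower calls, given with the results, and counts of calls moved by over 1.5 times under the settings that follow. Between TG Me-X04+ and TG Me-X04-, 58 calls of 998 tested became 32 of 998 at an adjusted p under 0.01 and a log2 fold change of 1 or more. They became 19 of 774 with neighbours summed, 25 of 756 with only both groups in the fit, 29 of 1292 with read counts and 22 of 756 with the replicate block (the mouse). Between TG Me-X04+ and WT, 71 of 998 became 46 of 998, 24 of 774, 46 of 761, 30 of 1292 and 18 of 761 under the same changes. They became 36 of 158 over positions listed in all 15 libraries and 172 of 998 with all deposited UMIs as library size. WT and TG replicate numbers do not pair animals, so that block has no meaning there. With 1 library left out the counts were 37 to 61 and 50 to 78, the lowest without TG Me-X04+ replicate 3 and without WT replicate 5, and 0 to 1 for TG Me-X04- against WT. DESeq2 called 79, 0 and 97, no filter 58, 0 and 77, and other normalizations 50 to 58, 0 and 64 to 70. Of 5442 alternatives for single named positions 1 turned the direction, a second 31-base Rmrp sequence against WT (0.16 with all deposited UMIs), and 281 ended a call, among them that of Snord68 against TG Me-X04- with read counts (adjusted p = 0.0784). The cause was not tested.

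With the replicate block no share can pass between TG Me-X04+ and TG Me-X04- (exact sign-flip, adjusted p = 0.0903). The paired differences were -0.167 (mitochondrial share), -0.0833 (its plus strand), -11.6 (exon), 4.21 (intron), 6.62 (intergenic), -14.7 (small-RNA gene), -13.9702 (reads of 25 bases or more) and 3.26 (table share) points, -2.51 bases, and -1249 and 33806 CPM of all deposited UMIs for small-RNA genes and other positions. The mitochondrial share against TG Me-X04- missed the threshold without its most abundant position (-0.0857) and as a share of all deposited UMIs (-0.00326). TG Me-X04- against WT missed it under both (-0.140 and -0.00311) and with reads (-0.206). No mitochondrial position was listed in all 15 libraries. For TG Me-X04- against WT the exon share turned to 0.324 over positions listed in all libraries and 0.136 with reads, and the antisense share missed the threshold over the former (-0.0634) and over members only (-1.58). TG Me-X04+ against WT turned to 2.92 for the antisense share over positions listed in all libraries.

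With 1 library left out, differences of TG Me-X04+ from TG Me-X04- ranged from -0.110 to -0.0724 (mitochondrial minus strand), 2.30 to 3.78 (table share), -1479 to -932 and 24473 to 39012 (CPM of small-RNA genes and other positions). Those of TG Me-X04+ from WT ranged from -0.130 to -0.0653 (minus strand), -1.20 to -0.624 (antisense) and -1780 to -1127 (CPM of small-RNA genes). Those of TG Me-X04- from WT ranged from -1.23 to 0.00386 (length), -0.0461 to 0.0185 (minus strand), -0.239 to -0.0915 (mitochondrial share), -4.19 to 1.49 (exon), -1.23 to 1.68 (intergenic), 1.46 to 3.57 (intron), -8.90 to -1.97 (small-RNA gene), -6.52 to 0.352 (25 bases or more) and -532 to 65.3 (CPM of small-RNA genes). Of the alternatives for counts and shares 481 kept direction, size and side of the threshold, 45 ended a call, 5 gained one, 14 moved a count by over 1.5 times and 17 turned the direction of a difference that had not passed. Values from 1 to 9 UMIs are not listed, so changes in faint positions were not detectable at this depth.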
